A study of Gallus gallus with 8 samples.

Results

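Hypothalamic gene expression in chickens at week 5 of age was compared with that at week 3, in a lean line (LL) and a fat line (FL) together. The comparison took 16 of the 32 arrays of the series, 8 at week 5 (4 LL and 4 FL) against 8 at week 3 (4 LL and 4 FL), chosen by the age and line in the sample labels. The study profiled whole hypothalamus of both lines at weeks 1, 3, 5 and 7 while the birds became fat, with 4 samples in each of 8 groups that the series text calls biological replicates. The birds were raised by a standard broiler protocol, which all groups shared, and neither a treatment nor the sex of the birds is given in the sources used here. Each array carried Cy3-labelled cDNA of 1 sample and Cy5-labelled cDNA of a common reference, a pool of equal parts of the RNA of every sample in the series. A value is therefore log2(Cy3/Cy5), the level of a clone in a hypothalamus relative to that pool, and a log2 difference of 1 is a 2-fold difference. The comparison asks which hypothalamic genes had another level at week 5 than at week 3.

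The hypothalamus sets feeding, energy expenditure, growth and reproduction. Its arcuate neurons make peptides that drive feeding (NPY and AGRP) or curb it (POMC), and its releasing hormones control the anterior pituitary below it. In bulk tissue of this kind, fewer cells of a type and less RNA per cell cannot be told apart.

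Of 17708 cDNA clones on the array, 8987 were bright enough to test, and 5410 of these carried the names of 4137 genes. Between 5853 and 10170 clones per array were above background on the 16 arrays. The median Cy3 signal was 4.77 ± 1.81 times the local background at week 5 and 4.85 ± 1.42 times at week 3 (SD, n = 8 each), a difference of -0.083 that did not exceed the spread between arrays (exact permutation within lines, two-sided, p = 0.92 over 4900 orders). The Cy5 reference was 3.88 ± 1.14 times background at week 5 and 4.68 ± 0.89 times at week 3. Its difference was -0.80 (same permutation test, p = 0.15). Neuronal transcripts were present: SNAP25, STMN2, UCHL1 and ENO2 were above background on 8 of 8 arrays at each age, and TUBB3 on 6 at week 3 and 7 at week 5. POMC was above background on 8 arrays at week 3 and 7 at week 5. The NPY and LEPR clones did not pass the brightness filter, and LEPR was above background on none of the 16 arrays. Anterior pituitary transcripts were also measured, with PRL, POU1F1 and GH above background on 8 of 8 arrays at each age and TSHB on none.

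The LL week 3 replicate 1 array stood apart. Over all tested clones its mean correlation with the other arrays of its group was -0.098, and the mean over the 6 pairs of that group was 0.20 with it and 0.50 over the 3 pairs without it. Its Cy3 signal was 2.33 times background against 4.38 times for its Cy5 reference. The other groups had mean correlations of 0.50 (LL week 5), 0.27 (FL week 3) and 0.39 (FL week 5). It is called the deviating array below. Of 121 named values, 36 moved by over 1.5 times or changed sign without the deviating array, 3 of these by sign. Where such a value is given it is followed by the one without that array. The lowest correlation among the 496 array pairs of the series was -0.34, between the arrays of replicate 4 of FL at week 5 and at week 1; the labels state the dyes, so the direction of the ratios was kept.

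The step from week 3 to week 5 was small. With limma over all 32 arrays, 2 of 8987 clones (0.0223%) passed an adjusted p of 0.05, both lower at week 5, and neither clone carries a gene name. No named gene passed in both lines together. At an unadjusted p under 0.05 there were 188 clones, 98 higher and 90 lower, which is 2.09% of those tested where 5% is the nominal share. Averaged over the lines, log2 differences had an SD of 0.13 across clones and only 2 exceeded 1 in size. Precision allowed this to be bounded: the median 95% confidence interval reached 0.21 log2 to either side, and for 98.8% of clones it lay wholly within a 2-fold difference, for 90.5% within a 1.5-fold difference.

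**Figure D1:**
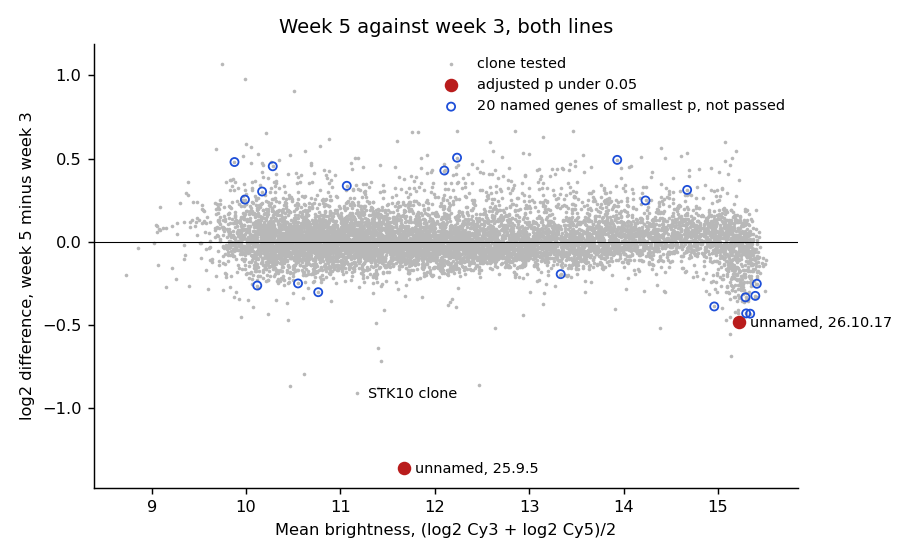
Log2 difference of week 5 minus week 3 (both lines) against the mean log2 brightness of each of 8987 clones, with the 2 clones that passed in red and the 20 named genes of smallest p circled in blue. Most points lie close to 0, and the brightest clones on the right lean below it, with unnamed clones labelled by block, row and column.

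The count of 2 depended on single arrays. Leaving out any of 12 of the 16 arrays left 0 clones past the threshold. As exceptions, 1 clone passed without LL week 3 replicate 2, and 2 passed without replicate 2 of LL week 5. Also, 2 passed without replicate 3 or without replicate 4 of FL week 5. Of the 2 that passed without FL week 5 replicate 3, only 1 had passed with all arrays. Without LL week 3 replicate 1 the count was 0, the lowest adjusted p was 0.11, and at an unadjusted p under 0.05 there were 101 clones. In a limma fit of only the 16 arrays of weeks 3 and 5 the count was also 0, at a lowest adjusted p of 0.79.

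The steps on either side, fitted in the same model, share arrays with this one. From week 1 to week 3, 11 of 8987 clones (0.122%) passed, 6 higher and 5 lower, and 1123 (12.5%) had an unadjusted p under 0.05. From week 5 to week 7 limma called 0 clones (0%), with 119 at an unadjusted p under 0.05. FL week 7 replicate 3, whose mean correlation with its group was -0.11, was included. Over the whole interval from week 1 to week 5, 141 clones (1.57%) passed, 114 higher and 27 lower. Whether these steps differ from that between weeks 3 and 5 was not tested.

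The clone with the largest change was an unnamed cDNA printed in block 25, row 9, column 5 of the array. In LL its log2 ratios were -0.67, -0.49, -0.98 and -0.33 at week 3 and -1.82, -0.74, -1.68 and -1.26 at week 5. In FL they were 0.17, -0.01, -0.00 and 0.63 at week 3 and -2.17, -2.67, -0.79 and -1.40 at week 5. All 4 FL arrays at week 5 lay below all 4 at week 3, whereas the LL arrays overlapped between the ages, as did the 8 against 8.

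Both lines together, this clone fell by 1.36 on the log2 scale (SE 0.24, 95% confidence interval -1.85 to -0.86, 2.56-fold lower, adjusted p = 0.041). All 8 week 5 arrays lay below the week 3 mean of their line. It was above background on 8 of 8 arrays at week 3 and 5 of 8 at week 5. The step was -1.96 in FL (adjusted p = 0.017) and -0.76 in LL (adjusted p = 0.999), and the difference of -1.20 ± 0.48 (SE) between the lines did not pass (adjusted p = 1.00).

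Its level was already lower at week 3 than at week 1. Its group means were 1.65 ± 0.17, -0.62 ± 0.28, -1.37 ± 0.49 and -2.19 ± 0.30 at weeks 1, 3, 5 and 7 in LL (SD, n = 4 each). In FL they were 1.75 ± 0.32, 0.20 ± 0.30, -1.76 ± 0.83 and -1.32 ± 0.87. The step from week 1 to week 3 was -1.91 (adjusted p = 1.18e-04) and that from week 5 to week 7 was -0.19.

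**Figure D2:**
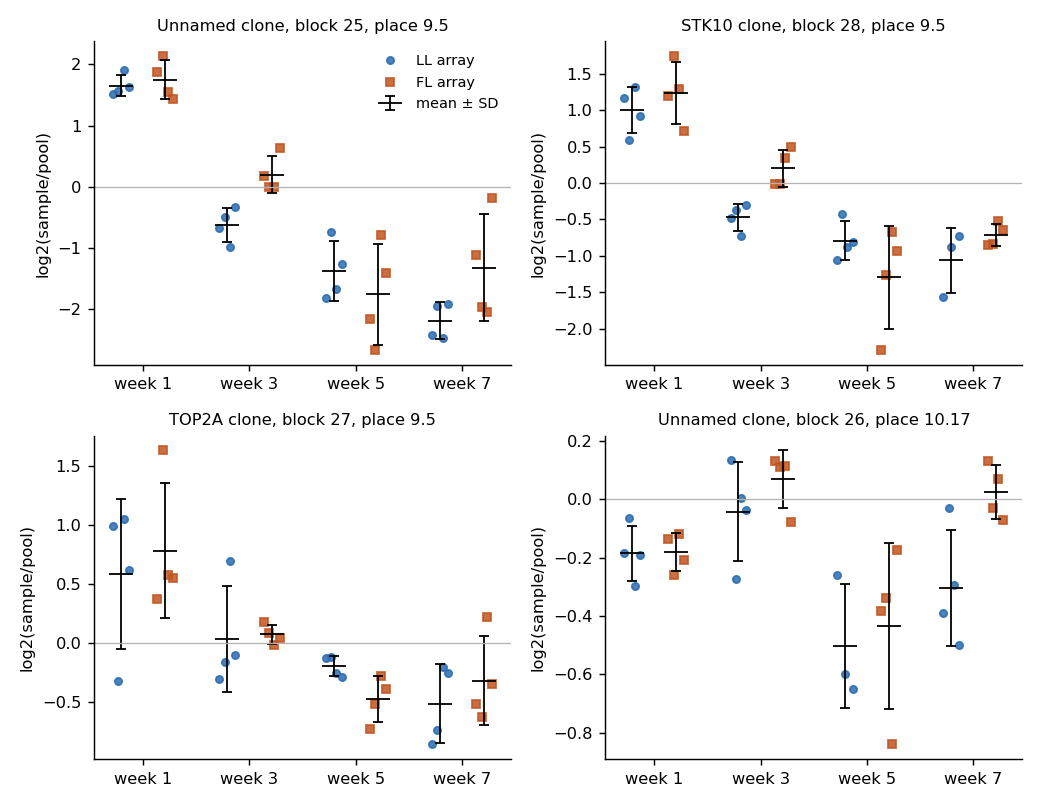
Log2(Cy3/Cy5) of 4 clones at weeks 1, 3, 5 and 7, 1 point per array, with group means and SD for LL and FL. The unnamed clone of block 25 and the STK10 clone are highest at week 1 and lower at weeks 3 and 5, TOP2A has smaller steps, and the unnamed clone of block 26 has its lowest mean at week 5 in both lines.

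A clone of STK10, a serine/threonine kinase known from lymphocytes, had a like course. Its log2 ratios ran from -0.73 through a median of -0.16 to 0.49 at week 3 and from -2.29 through -0.91 to -0.42 at week 5, so the ages overlapped. In both lines together the difference was -0.91 ± 0.18 (SE), with 7 of 8 week 5 arrays below the week 3 mean of their line, and it missed the threshold (adjusted p = 0.090). In FL it was -1.50 and passed, in LL -0.32, and the difference between the lines was -1.18 ± 0.36 (adjusted p = 1.00). The clone was above background on 8 arrays at week 3 and 5 at week 5. Its step from week 1 to week 3 was -1.25 (adjusted p = 9.47e-04). A brighter STK10 clone gave 0.08 ± 0.19 (unadjusted p = 0.68), so the 2 clones of the gene disagree.

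These 2 clones occupy the same place, row 9 and column 5, in blocks 25 and 28. The clones at that place in the blocks between them, looked up after these values were seen, were NFASC in block 26 and TOP2A in block 27. TOP2A, the topoisomerase that untangles DNA in dividing cells, read -0.31 to 0.70 (median 0.01) at week 3 and -0.73 to -0.12 (median -0.28) at week 5. Its difference was -0.39 ± 0.19, with 8 of 8 arrays in that direction, but adjusted p = 0.996, and its step from week 1 to week 3 was -0.63 (adjusted p = 0.17). The NFASC clone, for a cell adhesion protein of the axon, gave -0.01 ± 0.13. Whether the shared place on the array plays a part in these values was not tested.

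The other clone that passed was also unnamed and lay in block 26, row 10, column 17. Its log2 ratios were 0.13, -0.27, 0.01 and -0.04 in LL and 0.13, 0.11, 0.11 and -0.08 in FL at week 3. At week 5 they were -0.26, -0.60 and -0.65 in LL, with replicate 1 missing, and -0.38, -0.34, -0.84 and -0.17 in FL. The clone fell by 0.48 on the log2 scale (SE 0.09, adjusted p = 0.041), by nearly as much in LL (-0.46) as in FL (-0.50), with 7 of 7 measured arrays in that direction and an overlap of the ages at 1 LL week 3 array. From week 5 to week 7 its value was 0.33 (adjusted p = 1.00).

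This clone was among the brightest and was partly saturated. The array files give a saturation factor for each spot, read here as the share of pixels that were not saturated; it averaged 32.7% for this clone at week 3 and 13.5% at week 5, so no fold change is given. With spots under 90% left out the clone had too few values to test. With intensity taken per whole spot area it read -0.61 and did not pass. In that setting, as in the main one, both channels of a spot are divided by the same quantity. It therefore cannot test the effect of saturation on the ratio.

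Saturation touched the brightest clones in general. The 641 clones above a mean log2 brightness of 15 had 45.9% of pixels unsaturated at week 3 and 37.3% at week 5, a median difference of -0.033, and 31 lower against 6 higher clones at an unadjusted p under 0.05. Among the 8346 clones up to that brightness the median was 0.0064, with 59 lower and 92 higher. By array, the unsaturated share among the 641 brightest ran from 34.6% to 80.5% at week 3 and from 23.8% to 51.2% at week 5. The 80.5% came from FL week 3 replicate 2, and no other week 3 array was above 51.0%. With partly saturated spots left out, 1 of 8172 clones passed in both lines together, with 149 at an unadjusted p under 0.05. The part that saturation plays in the lower values at week 5 was not tested beyond this.

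The named genes of smallest p are given as values, since none passed (adjusted p = 0.996 for each of the 10 highest and 10 lowest). Among the higher ones, VSTM2L, an immunoglobulin-domain protein, read -0.25 to 0.29 (median -0.05) at week 3 and 0.09 to 0.95 (median 0.43) at week 5. All 8 arrays at week 5 lay above the week 3 mean of their line, at a difference of 0.48 ± 0.13 that was alike in LL (0.51) and FL (0.45). On the authors' own ratios it was 0.09. CTSZ, a lysosomal cathepsin, went from a median of -0.07 (-0.28 to 0.17) to 0.16 (-0.01 to 0.51), a difference of 0.25 ± 0.08 with 8 of 8 arrays, and 0.01 on the authors' ratios. SUMO2, a small ubiquitin-like modifier, went from -0.08 (-0.51 to 0.20) to 0.25 (0.05 to 0.64), a difference of 0.34 ± 0.12 with 8 of 8 arrays. The ages overlapped for all 3 genes.

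The remaining higher genes had differences of the same order. Translation factor EIF4G2 differed by 0.43 ± 0.16 (7 of 7 arrays), the Integrator subunit INTS2 by 0.30 ± 0.10 and the mitotic kinase NEK7 by 0.25 ± 0.09 (8 of 8 each). CRPL2 differed by 0.31 ± 0.10 and R3HCC1 by 0.49 ± 0.19 (8 of 8 each). LOC425137 differed by 0.45 ± 0.14 (6 of 7) and OCIAD2 by 0.51 ± 0.19 (6 of 7). OCIAD2 depended on single arrays: without the deviating array it was 0.27, and without LL week 3 replicate 4 it was 0.74. A dimmer R3HCC1 clone gave 0.15 ± 0.12. NEK7, INTS2 and LOC425137 were dim, above background on 4 or 5 of 8 arrays at each age.

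Among the lower genes, 4 lay on clones with over 90% of their pixels unsaturated at both ages. ERG28, named for a scaffold of ergosterol synthesis in yeast, went from a median of 0.07 (-0.07 to 0.24) at week 3 to -0.07 (-0.32 to -0.00) at week 5, a difference of -0.19 ± 0.07. The calcium channel subunit ORAI3 went from 0.16 (-0.08 to 0.73) to -0.09 (-0.21 to 0.09), a difference of -0.30 ± 0.10. FSBP differed by -0.25 ± 0.09 and PDS5B, a regulator of cohesin, by -0.26 ± 0.10. PDS5B read 1.11 on FL week 3 replicate 2 and differed by -0.17 without that array. All 4 had 8 of 8 week 5 arrays in that direction, and the ages overlapped for each.

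The other 6 lower genes were bright and partly saturated, more so at week 5. STK25, a serine/threonine kinase, read -0.18 to 0.78 (median -0.01) at week 3 and -0.51 to -0.12 (median -0.27) at week 5, a difference of -0.43 ± 0.14, with 38.1% of pixels unsaturated at week 3 and 21.5% at week 5. ATG13, which starts autophagy, differed by -0.43 ± 0.14 (30.0% and 20.8% unsaturated). PHF6, a chromatin zinc finger protein, differed by -0.33 ± 0.12 (53.5% and 29.8%). CBFB, the partner of the RUNX factors, differed by -0.25 ± 0.09 (36.9% and 23.0%). TXLNB differed by -0.33 ± 0.12 (50.2% and 29.4%) and the oxysterol-binding protein OSBPL6 by -0.39 ± 0.15 (30.7% and 21.2%). None of these 6 clones could be tested with partly saturated spots left out.

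For all 6 of these genes the highest week 3 value came from LL week 3 replicate 1. Without that array the differences were -0.35 for STK25, -0.35 for ATG13, -0.26 for PHF6, -0.22 for CBFB, -0.26 for TXLNB and -0.30 for OSBPL6. A dimmer STK25 clone gave 0.22 ± 0.12, opposite in sign to the saturated one. Dimmer clones of ATG13 and CBFB gave -0.06 ± 0.11 and -0.06 ± 0.12, smaller in size than the saturated ones.

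**Figure D3:**
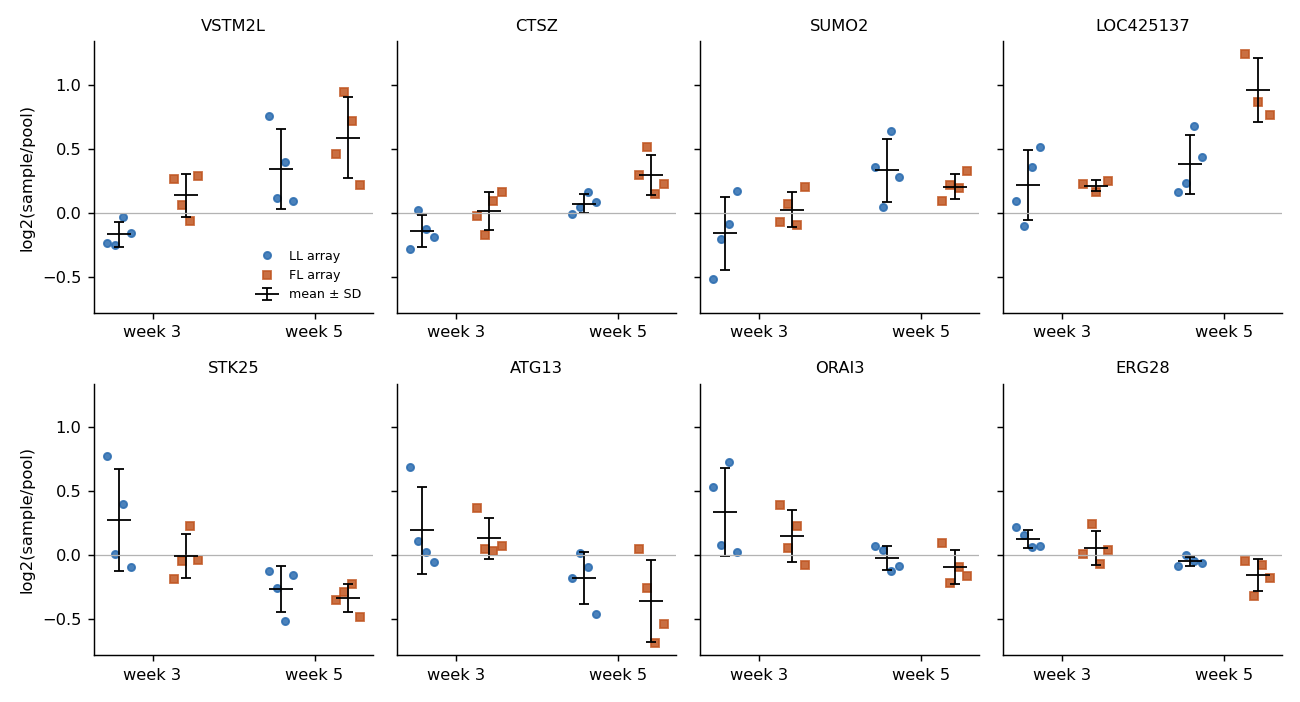
Log2(Cy3/Cy5) at weeks 3 and 5 of VSTM2L, CTSZ, SUMO2, LOC425137, STK25, ATG13, ORAI3 and ERG28, 1 point per array for LL and FL, with group means and SD. The arrays of the 2 ages overlap for each gene.

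Only 2 of 8987 clones (0.0223%) had week 3 and week 5 arrays that did not overlap, and both were picked out after their values were seen. A clone of NDRG1, a stress-responsive gene, read -0.02 to 0.28 (median 0.20, n = 7) at week 3 and 0.30 to 0.63 (median 0.53, n = 7) at week 5, a difference of 0.30 ± 0.14 (adjusted p = 0.996). The other 3 NDRG1 clones gave -0.04, -0.06 and 0.14. A clone of B3GNT2, a glycosyltransferase, read -0.059 to 0.040 (n = 5) at week 3 and -0.180 to -0.062 (n = 5) at week 5, a difference of -0.11 ± 0.08 (adjusted p = 0.996).

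Within the lean line alone limma called 0 of 8987 clones (0%), with 113 at an unadjusted p under 0.05 (74 higher, 39 lower). Within the fat line 2 of 8987 clones (0.0223%) passed, both lower: the unnamed clone of block 25 and the STK10 clone. The fat line count was 0 without replicate 3 or 4 of week 3 or replicate 1 or 2 of week 5 of that line, and 3 without its replicate 1 of week 3. The difference of the step between the lines passed for 0 clones (0%), with 78 at an unadjusted p under 0.05. It was less precise than the step in both lines together. Its median confidence interval reached 0.43 log2 to either side. The intervals lay within a 2-fold difference for 86.6% of clones and within a 1.5-fold difference for 54.7%. Within LL and FL alone, 76.6% and 77.9% of clones had intervals within a 1.5-fold difference. The count of 0 therefore does not show that the lines step alike. Across the clones the steps of the lines had a correlation of 0.15 and the same sign in 57.2% (8987 clones of the same arrays, which are not independent replicates).

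The 5 named genes of smallest p for a difference between the lines had values of opposite sign in LL and FL, with adjusted p = 1.00 for each. RPS21, a ribosomal protein, gave 0.29 in LL and -0.46 in FL, a difference of -0.74 ± 0.18, on a clone with 61.9% of pixels unsaturated at week 3 and 67.3% at week 5. BRINP1, a brain protein that restrains the cell cycle of neural cells, gave 0.09 and -0.41 (difference -0.50 ± 0.16). The axon guidance ligand SLIT2 gave -0.36 and 0.34 (difference 0.70 ± 0.25). MPC1L, named for the mitochondrial pyruvate carrier, gave 0.19 and -0.23 (difference -0.42 ± 0.16), and the transcription factor ZEB1 gave -0.24 and 0.19 (difference 0.43 ± 0.17). Without the deviating array the LL values were 0.17 for RPS21, 0.02 for BRINP1, -0.20 for SLIT2, 0.09 for MPC1L and -0.36 for ZEB1. The differences between the lines were then -0.63, -0.43, 0.54, -0.32 and 0.55 in that order. For both lines together RPS21 was -0.08 with that array and -0.14 without it, SLIT2 -0.01 and 0.07, MPC1L -0.02 and -0.07, and ZEB1 -0.03 and -0.09.

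**Figure D4:**
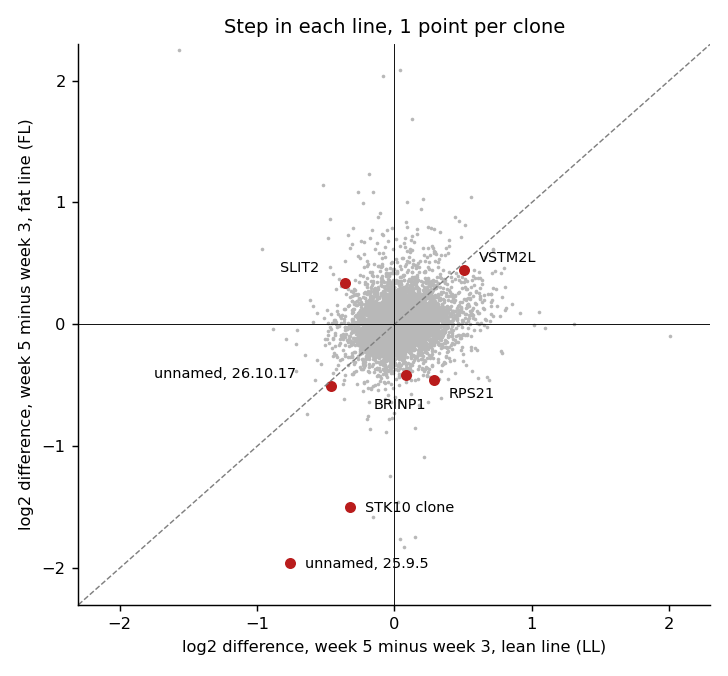
Log2 difference of week 5 minus week 3 in the lean line (horizontal) against that in the fat line (vertical), 1 point per clone, with the dashed line marking equal steps. The unnamed clone of block 25 and STK10 lie far below 0 in FL and less so in LL, the unnamed clone of block 26 and VSTM2L lie near the dashed line, and RPS21, BRINP1 and SLIT2 have opposite signs in the lines.

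Genes were also described by 31 lists of hypothalamic functions and cell types, of which 459 genes were tested. None passed (adjusted p from 0.996 to 1.00), 8 (1.74%) had an unadjusted p under 0.05, and for 410 (89.3%) the 95% confidence interval lay within a 1.5-fold difference. Over all 4137 genes the median log2 difference was 0.0028 and 51.0% were positive. The list medians ran from -0.14 for red blood cell genes to 0.14 for transmitter genes. Without the deviating array they ran from -0.06 to 0.09. The counts of positive genes also moved without it, down in some lists and up in others, and larger moves are given below. Each list is given below by how many of its tested genes had positive values and by its median. Most examples are from its genes of smallest p. Some, such as POMC, TTR, SNAP25, MBP and GH, are not and are given as values only.

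Of the 32 genes listed as feeding peptides and their receptors, 8 had a named clone on the array. AGRP, CARTPT, HCRT, MC3R and MC4R were among those that had none and were not measured. In this list 6 genes were tested and 1 was positive (median -0.039). POMC, the precursor of the satiety peptide alpha-MSH, differed by 0.03 ± 0.08, and the feeding-suppressing peptide NMU by -0.12 ± 0.10 (-0.06 without the deviating array). POMC is also counted in the anterior pituitary list, and pituitary transcripts were measured here. Its value cannot be assigned to arcuate neurons alone. The BDNF receptor NTRK2 differed by -0.12 ± 0.06 and the cannabinoid receptor CNR1 by -0.06 ± 0.06. All 6 of the 95% confidence intervals lay within a 1.5-fold difference.

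Of the 22 genes listed as neurohypophysial, releasing and growth peptides, 5 had a named clone on the array. AVT, OXT, GNRH1, GHRH and SST had none, so these peptides were not measured. Of the 4 tested genes (PNOC, SSTR2, IGFBP2 and IGFBP4), 1 was positive (median -0.096). PNOC, the nociceptin precursor, differed by -0.10 ± 0.07 and the somatostatin receptor SSTR2 by -0.10 ± 0.10, against -0.02 and -0.04 without the deviating array. The IGF-binding protein IGFBP4, above background on 4 arrays at week 3 and 3 at week 5, differed by 0.12 ± 0.11 (0.05 without it). The list median was then -0.034.

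Of the peptide-processing genes 5 of 9 were positive (median 0.018). SCG2, a granin of secretory granules, read -1.24 to 1.19 (n = 6) at week 3 and 0.73 to 1.02 (n = 5) at week 5, a difference of 0.44 ± 0.37, and 0.17 without the deviating array. The convertase chaperone SCG5 differed by 0.15 ± 0.15 (0.04 without it) and carboxypeptidase CPE by 0.11 ± 0.12.

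Of the thyroid, steroid and retinoid genes 4 of 5 were positive (median 0.13). The retinol carrier RBP4 differed by 0.39 ± 0.24, with 0.08 in LL and 0.71 in FL. Without the deviating array its LL value was 0.24. Without background subtraction RBP4 read -0.08 in both lines together. The thyroid hormone receptor THRB differed by 0.13 ± 0.19 and the thyroid hormone-binding CRYM by 0.15 ± 0.15, while a dimmer CRYM clone gave -0.10 ± 0.24. TTR, the thyroid hormone carrier that marks choroid plexus, differed by -0.01 ± 0.22, with -0.44 in LL and 0.42 in FL.

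**Figure D5:**
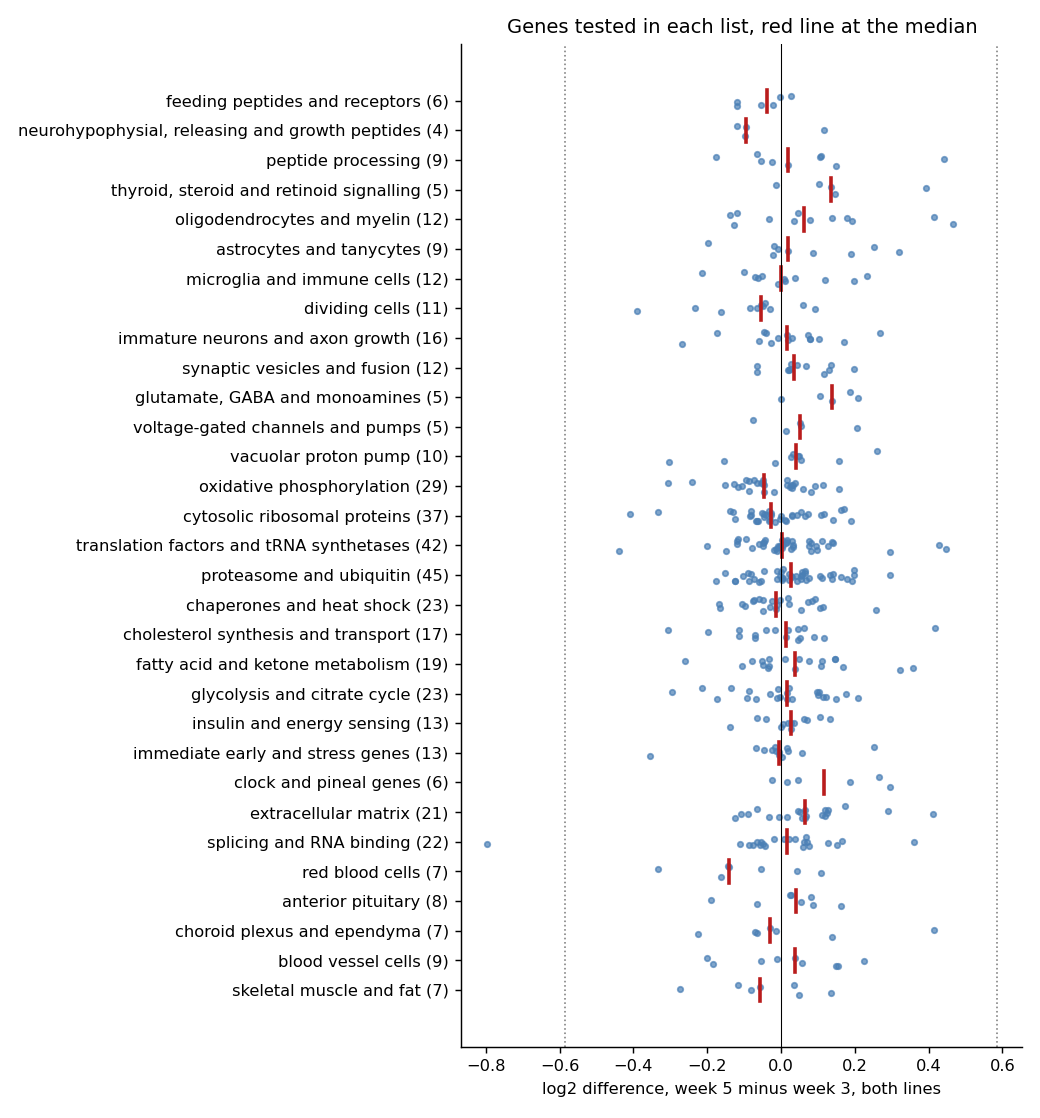
Log2 difference of week 5 minus week 3 (both lines) for the tested genes of 31 lists, 1 point per gene, with the number of genes in parentheses, a red mark at each median and dotted lines at a 1.5-fold difference. The list medians lie between -0.14 and 0.14, and no gene passed the test.

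In 3 lists, of synaptic vesicles, transmitters, and channels and ion pumps, most genes had positive values. Synaptic vesicle genes were positive for 10 of 12 (median 0.035), with the fusion factors NSF at 0.20 ± 0.17 and NAPB at 0.13 ± 0.10. The dynamin DNM1 differed by 0.12 ± 0.10 and the release protein SNAP25 by -0.06 ± 0.09. Transmitter genes were positive for 4 of 5 (median 0.14), among them the serotonin-synthesis enzyme TPH1 at 0.19 ± 0.11 and the glutamate receptor GRIA2 at 0.21 ± 0.18. SLC18A2, the vesicular monoamine transporter, differed by 0.10 ± 0.12. Of the voltage-gated channels and ion pumps 4 of 5 were positive (median 0.052). The 5 included the pump genes ATP1B1 and ATP2A2. KCNAB1 differed by 0.21 ± 0.15, and the calcium channel genes CACNB4 by 0.05 ± 0.14 and CACNA1B by -0.08 ± 0.11. The deviating array moved these lists. Without it 6 of 12 synaptic vesicle genes (median 0.011) and 5 of 5 transmitter genes (median 0.059) were positive. Of the channel and pump genes 3 of 5 were then positive (median 0.0073). NSF was then 0.08, NAPB 0.04, GRIA2 0.06 and SLC18A2 0.04. KCNAB1 was 0.09, CACNB4 -0.04 and CACNA1B 0.01.

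Genes of immature neurons and axon growth were positive for 9 of 16 (median 0.017), and for 7 of 16 without the deviating array (median -0.023). The microtubule regulator STMN4 differed by 0.17 ± 0.10 (0.11 without the deviating array) and the brightest NFASC clone by -0.17 ± 0.11. A dimmer STMN4 clone gave -0.04 ± 0.09. STMN2, of the same family as STMN4, gave -0.27 ± 0.17 on a clone with 13.8% of pixels unsaturated at week 3, while its other clone gave -0.01. Dividing-cell genes were positive for 2 of 11 (median -0.053), with TOP2A the largest in size, the replication helicase subunit MCM4 at -0.07 ± 0.06 and STMN1 at -0.16 ± 0.17.

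Glial lists were mixed. Oligodendrocyte and myelin genes were positive for 8 of 12 (median 0.062). CNP, an enzyme of myelin, read -0.34 to 0.85 (median 0.61) at week 3 and 0.59 to 1.45 (median 0.91) at week 5. Its difference of 0.47 ± 0.28, with 8 of 8 arrays in that direction, was 0.35 without the deviating array and 0.10 without background subtraction. The phospholipase ENPP2 differed by 0.42 ± 0.25, while a dimmer ENPP2 clone gave -0.10 ± 0.20. The deacetylase SIRT2 differed by -0.13 ± 0.07 and the myelin protein MBP by 0.14 ± 0.17.

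Astrocyte and tanycyte genes were positive for 5 of 9 (median 0.020). The chaperone CLU differed by 0.32 ± 0.19, and by 0.17 without the deviating array. The intermediate filament GFAP differed by 0.25 ± 0.23 on a clone with 31.5% of pixels unsaturated at week 3, and AGT, the angiotensin precursor, by 0.19 ± 0.16. They were 0.12 and 0.10 without the deviating array, and GFAP was 0.42 without FL week 3 replicate 2. Microglial and immune genes were positive for 6 of 12 (median -0.00080), with the MHC genes BLB1 at 0.23 ± 0.16 and BF2 at 0.12 ± 0.08 and the interferon-regulated IRF1 at -0.10 ± 0.10 (-0.0080 without the deviating array).

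Lists of other cell types that the dissection could hold were as follows. Anterior pituitary genes were positive for 6 of 8 (median 0.041), with the pituitary factor POU1F1 at 0.16 ± 0.13, prolactin (PRL) at 0.08 ± 0.09 and growth hormone (GH) at 0.09 ± 0.15. CGA, the shared subunit of the glycoprotein hormones, gave -0.19 ± 0.15 with 11.2% of pixels unsaturated at week 3. Choroid plexus and ependymal genes were positive for 2 of 7 (median -0.030), with the tight junction gene CLDN1 at 0.14 ± 0.07 and CLDN3, partly saturated, at -0.23 ± 0.15. Without the deviating array POU1F1 was 0.08, PRL 0.04, CGA -0.11 and CLDN3 -0.10.

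Blood vessel genes were positive for 5 of 9 (median 0.038), with the endothelial genes ENG at -0.18 ± 0.12 and ESAM at 0.15 ± 0.10. Muscle and fat genes were positive for 3 of 7 (median -0.057), with the filament DES at -0.27 ± 0.20 and actin ACTA1 at 0.14 ± 0.16 (0.04 without the deviating array). Red blood cell genes were positive for 2 of 7 (median -0.14, or -0.059 without that array). The highest was ALAS1 at 0.11, counted in place of the listed ALAS2 through a synonym, although the 2 are different genes. HBBA, a beta-globin, read -0.37 to 0.29 (median 0.10, n = 7) at week 3 and -0.62 to 0.48 (median -0.38, n = 7) at week 5. Its difference was -0.33 ± 0.15 (adjusted p = 0.996), made of -0.03 in LL and -0.64 in FL. LL week 5 replicate 1 read 0.48, against -0.62 to -0.22 on the other LL arrays of that age. Without LL week 5 replicate 1 the difference in both lines together was -0.44. The step of HBBA from week 1 to week 3 was -0.91 and passed (adjusted p = 0.0091). The membrane skeleton genes EPB41 and ANK1 each differed by -0.14 ± 0.10. EPB41 read 0.73 on FL week 3 replicate 2 and differed by -0.05 without that array. ANK1 was -0.08 without the deviating array, and a dimmer EPB41 clone gave 0.34 ± 0.19.

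Among energy and lipid genes, the vacuolar proton pump was positive for 7 of 10 (median 0.039). Its subunit ATP6V1A read -1.10 to 0.23 (median -0.15) at week 3 and -0.11 to 0.21 (median 0.04) at week 5, a difference of 0.26 ± 0.11 that was 0.15 without the deviating array. The subunits ATP6V0B and ATP6V1E1 had negative values, -0.30 ± 0.24 (-0.17 without it) and -0.15 ± 0.10. Oxidative phosphorylation genes were positive for 12 of 29 (median -0.047), and for 6 of 29 without the deviating array (median -0.040). The complex III subunit UQCRFS1 differed by -0.15 ± 0.07 with 8 of 8 arrays in that direction, and the ATP synthase subunit ATP5B by -0.24 ± 0.11 on a clone with 45.8% of pixels unsaturated at week 3. Glycolysis and citrate cycle genes were positive for 12 of 23 (median 0.015). PDK4, the kinase that restrains pyruvate oxidation, differed by 0.21 ± 0.12 and the dehydrogenase IDH1 by 0.15 ± 0.09. The PDK4 medians were -0.13 at week 3 and -0.10 at week 5. Its most distant values were -0.74 on FL week 3 replicate 2 and 0.86 on LL week 5 replicate 3. Dimmer IDH1 clones gave 0.005 ± 0.131 and -0.032 ± 0.080.

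Cholesterol genes were positive for 9 of 17 (median 0.013), and for 6 of 17 without the deviating array (median -0.0083). FDFT1, the squalene synthase, read -0.41 to 0.58 (median 0.25) at week 3 and -0.54 to 0.10 (median -0.04) at week 5. Its difference was -0.31 ± 0.12 (7 of 8 arrays), with -0.12 in LL and -0.49 in FL. Without the deviating array the LL value of FDFT1 was -0.26. NPC2, which moves cholesterol out of lysosomes, differed by 0.42 ± 0.22 on 1 clone and -0.16 ± 0.16 on a dimmer one, and the sterol oxidase MSMO1 by -0.11 ± 0.08. Fatty acid and ketone genes were positive for 11 of 19 (median 0.038), with the desaturase FADS2 at 0.15 ± 0.08 and the fatty acid carrier FABP5 at -0.11 ± 0.06. FADS2 read 0.83 on LL week 5 replicate 3 and differed by 0.07 without that array. BDH1A, a ketone body dehydrogenase, gave -0.26 ± 0.13 with 7 of 8 arrays in that direction, on a clone with 20.7% of pixels unsaturated at week 3 and 8.46% at week 5.

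Insulin and energy-sensing genes were positive for 9 of 13 (median 0.026), and for 11 of 13 without the deviating array (median 0.026). With all arrays, all 13 intervals lay within a 1.5-fold difference. The AMP-activated kinase subunit PRKAA1 differed by 0.07 ± 0.07 and the CREB coactivator CRTC1 by -0.14 ± 0.12. Immediate early and stress genes were positive for 5 of 13 (median -0.0062). GPX4, an enzyme against lipid peroxides, gave -0.35 ± 0.15 with only 4.47% of pixels unsaturated at week 3 and 3.49% at week 5. Clock and pineal genes were positive for 5 of 6 (median 0.12), with the melatonin enzyme ASMT at 0.29 ± 0.19 and CLOCK at 0.27 ± 0.19. CLOCK was 0.14 without the deviating array, and a dimmer CLOCK clone gave -0.11 ± 0.18.

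Lists of general cell functions had medians of small size. Ribosomal protein genes were positive for 14 of 37 (median -0.027), and for 10 of 37 without the deviating array (median -0.036). RPL13 differed by -0.41 ± 0.26, with FL week 5 replicate 2 at -2.43, and by -0.11 without that array. Translation factors and tRNA synthetases were positive for 23 of 42 (median 0.0035), with EIF3F at -0.12 ± 0.06 and the synthetase EPRS at -0.15 ± 0.08, while 2 dimmer EPRS clones gave 0.15 ± 0.20 and 0.10 ± 0.14. Proteasome and ubiquitin genes were positive for 30 of 45 (median 0.027), and for 23 of 45 without the deviating array (median 0.0029). The proteasome inhibitor PSMF1 differed by -0.12 ± 0.09. Chaperones were positive for 9 of 23 (median -0.014), with the chaperonin subunit CCT8 at -0.17 ± 0.08 (-0.09 without the deviating array) and mitochondrial HSPD1 at -0.10 ± 0.06.

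Extracellular matrix genes were positive for 15 of 21 (median 0.065), with the collagen gene COL6A1 at 0.41 ± 0.24 and the protease MMP2 at 0.13 ± 0.09. Without the deviating array COL6A1 was 0.28, with 0.04 in LL. It was 0.11 without background subtraction. Splicing and RNA-binding genes were positive for 12 of 22 (median 0.015). The splicing factor SRSF10 differed by -0.80 ± 0.45, with FL week 3 replicate 3 at 5.22, and by 0.06 without that array. PTBP1, a repressor of splicing, differed by -0.09 ± 0.06.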

How the data were processed

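Per the file headers, each deposited array file gives Cy3 and Cy5 raw intensity and background, spot area, a saturation factor, quality letters and the authors' log2 of normalized Cy3 over raw Cy5. The authors' ratios are listed only where both channels reached about 2 times background, as tested on the files; the sources used here name no image software or normalization method. Intensities were divided by area times the saturation factor, which left no value above 65479 on any of the 32 arrays. Spots with letters A, X, Y or Z, unsatisfactory per the file headers, were left out (11.4% to 27.2% of spots on the 16 arrays). The letter S is not defined there and was kept. Background was corrected by normexp (offset 50) and arrays normalized by loess (span 0.3, 4 iterations) in limma 3.58.1, R 4.3.3, then spots of 1 accession were averaged.

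Clones were tested where Cy3 exceeded the 95th percentile of the array's empty spots on at least 3 of 4 arrays of a group and every group had at least 2 values. A model of 8 group means over 32 arrays was fitted with lmFit and eBayes, with Benjamini-Hochberg adjustment over 8987 clones. Over the 32 arrays 3.10% of values were missing and dropped clone by clone. The number of arrays limits the precision.

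Names came from GEO's platform annotation by the spot names of the array files (10478 spots, of which 10332 matched the current gene table). In the series-wide table the same values stand under other spot names: 64503 of 64503 values agreed within 0.005 by place, 1775 of 30053 by name. By the array files' names, ribosomal protein spots had a median log2 Cy3 of 12.7 against 11.0 for all named spots, and by the table's names 10.8.

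Named genes were, per direction, the clones past the threshold and the 10 genes of smallest p, up to 3 genes per list, and the 5 of smallest p for a difference between lines. Some further list members, such as POMC and TTR, are given outside this rule. The brightest clone stands for a gene. Members, lists and tests were chosen with earlier results of these data known. Some list symbols matched through synonyms (ALAS2 to ALAS1, BDH1 to BDH1A).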

Additional observations from a re-analysis of the deposited data

Results flagged for a closer look

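Within groups of 4 arrays, single values far from the other 3 were looked for among the passing clones and the named genes of smallest p. Of 107 groups tested, 9 (8.41%) held such a value. A nominal rate of about 1 in 20 holds only for independent groups not chosen by their values, unlike these. In the lean line at week 3, 3 of them were replicate 1, the array that stood apart from its group. MPC1L read -0.59 there against -0.22 to -0.16 on the others, CRPL2 read -0.83 against -0.22 to -0.12, and PDS5B read 0.65 against 0.34 to 0.36.

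In the lean line at week 5, SLIT2 read -0.094 in replicate 1 against 0.20 to 0.24, and INTS2 read 0.88 in replicate 3 against 0.079 to 0.16. In the fat line at week 3, the unnamed clone of block 26 that passed read -0.079 in replicate 4 against 0.11 to 0.13, and ATG13 read 0.37 in replicate 1 against 0.034 to 0.072. In the fat line at week 5, CRPL2 read 0.72 in replicate 2 against -0.084 to 0.045, and PDS5B read 0.13 in replicate 4 against 0.30 to 0.34. The causes were not tested.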

How the results depend on the processing

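Of 8987 clones, 2 passed in both lines together. The count was 0 without background subtraction, with no filter on dim clones, on the 16 arrays of weeks 3 and 5 alone, with array weights, on the authors' log2 ratios, with the replicate block, and with intensity per whole spot area. It was 3 with scale normalization and 3 with signal as a covariate. It was 1 with S spots left out and 1 with partly saturated spots left out, alternatives chosen with area scaling after seeing the data. Leaving out 1 array gave 0 to 2. In FL the count of 2 became 1 with scale normalization and 0 on the 16 arrays alone, with array weights and on the authors' ratios, and ran from 0 to 3 without 1 array. In LL and for the difference between the lines 0 passed under every alternative run. The replicate numbers did not meet the criterion for pairing samples of the 2 ages, a correlation of deviations over 0.1 in every pair: it was 0.07 to 0.28 in LL and -0.14 to 0.42 in FL. As a hint from the data, same-numbered samples correlated better than the mean of other numbers in 7 of 8 pairs, and replicates 1 and 2 had a lower Cy3 signal (2.33 to 4.38 times background) than replicates 3 and 4 (5.04 to 7.10) at both ages. With the replicate block the smallest adjusted p in both lines together was 0.052. It was 0.79 on the 16 arrays alone and 0.99 on the authors' ratios. Under the other processing settings with a count of 0 it ran from 0.052 to 0.087.

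Of the 121 named values, 104 kept their sign under every alternative run, and 39 of 3539 values (1.10%) were of opposite sign, none of a value that had passed. Without background subtraction these were RBP4 (-0.078), THRB (-0.038), PRKAB2 (-0.029), ZEB1 (0.0087) and SLIT2 (0.0091). With array weights they were CACNB4 (-0.013) and SLIT2 (0.062). On the authors' ratios they were CACNB4 (-0.024), GRIA2 (-0.017), MPC1L (0.011), LAMB1 (0.030), IRF1 (0.011), CNR1 (0.045) and PNOC (0.0100). SLIT2 was also 0.055 with scale normalization, 0.022 with the replicate block, 0.0056 with signal as a covariate and 0.070 with flagged spots kept, and NAPB was -0.0015 per spot area. Leaving out 1 array at a time, the ranges that crossed 0 were -0.136 to 0.014 for CACNA1B, -0.041 to 0.141 for CACNB4, -0.031 to 0.206 for IGFBP4, -0.066 to 0.034 for MPC1L, -0.058 to 0.017 for the NFASC clone of block 26, -0.067 to 0.072 for SLIT2, -1.27 to 0.061 for SRSF10 and -0.088 to 0.029 for ZEB1. Of 46 named genes with several clones, 22 had clones of 1 sign only. For some genes given above by their brightest clone, a dimmer clone had the opposite sign. Such clones gave 0.03 for MCM4, 0.04 for ENG, -0.03 for ESAM, -0.02 for DNM1 and 0.007 for BRINP1. Others gave 0.01 for PTBP1, 0.003 for MSMO1, -0.03 for PRKAB2, and -0.03 and -0.05 for BF2. Depth of signal limits the dim clones and saturation the bright ones. The causes were not tested.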
